A study of Homo sapiens with 12 samples.

Results

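The Hippo pathway is a kinase cascade that restrains cell growth. In its core the kinases MST1 and MST2 (genes STK4 and STK3), with the adaptors SAV1 and MOB1, activate the kinases LATS1 and LATS2, which phosphorylate the coactivators YAP (YAP1) and TAZ (WWTR1) and keep them out of the nucleus. Unphosphorylated YAP and TAZ bind the TEAD transcription factors and raise genes such as CTGF, CYR61 and ANKRD1. FAT1, an atypical cadherin that is often mutated in head and neck squamous cancer, is one of the membrane proteins known to act upstream of this cascade.

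This account follows 38 genes of that pathway through an FAT1 knockdown (FAT1 KD) experiment. They were taken by symbol from the 19225 entries of a table of read counts and fall into 7 core kinases and adaptors, 7 upstream regulators and angiomotins, 7 effectors and TEAD factors, and 17 target genes. CTGF, CYR61 and LHFP are the older symbols of CCN2, CCN1 and LHFPL6. All 38 were among the 14360 genes with enough counts to be tested.

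The cells were HN6 and HN30, 2 established oral squamous cell carcinoma (OSCC) lines, and their RNA was taken 24 h after transfection. Each line received a scrambled siRNA (NC) or 1 of 2 siRNAs against FAT1, siFAT1-1 or siFAT1-2. Each of the 6 conditions was done in 2 biological repeats, labelled time1 and time2, giving 12 libraries. All cells, NC included, were transfected with a lipid reagent. The knockdown was transient, each line stands for 1 tumour, and the labels call the KD groups hairpins although their descriptions call them siRNAs.

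Total counts per library ran from 26430049 to 47639010. Of 8 squamous epithelial markers 7 were above 1 CPM (counts scaled to a common library total) in every library of both lines, and the exception was KRT14, at 0 to 0.0746 CPM in HN30 and 0.221 to 2.43 CPM in HN6. Of the immune markers PTPRC was at or near 0 in all 12 libraries, while CD68 was present at 16.1 to 121 CPM. The fibroblast marker DCN stayed at or below 0.81 CPM and COL1A1 ran from 11.1 to 146 CPM. The 2 repeats of HN6 NC were the least alike. They correlated at r = 0.947 across genes on the log2 scale, the lowest of the 6 pairs of repeats, followed by HN6 siFAT1-2 at 0.961. Their median gap was 0.21 among genes with the shortest transcripts and -0.21 among those with the longest (log2, repeat 2 minus repeat 1, first and last of 4 equal bins of length). In HN30 NC the same gaps were -0.12 and 0.16. These values do not tell which of the 2 HN6 NC repeats was unusual.

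FAT1 (GRCh38, chr4:186587794-186726722, minus strand) fell below the NC level in each KD library. In HN6 the NC libraries held 56.8 and 66.8 CPM, the siFAT1-1 libraries 7.60 and 13.5, and the siFAT1-2 libraries 13.2 and 21.4. In HN30, where FAT1 was lower to begin with, the values were 13.6 and 14.8 in NC, 4.85 and 6.25 after siFAT1-1, and 10.8 and 7.75 after siFAT1-2. Over both lines the log2 fold change was -1.59 ± 0.31 (SE; edgeR quasi-likelihood test, Benjamini-Hochberg adjusted p = 0.041). With the repeat as a block the adjusted p was 0.078. Without any 1 of 11 of the 12 libraries the adjusted p was also above 0.05, up to 0.12, and the exception was repeat 1 of HN30 siFAT1-2.

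In the NC libraries the parallel members of the cascade were present at unequal levels. Levels between genes were compared as CPM per kilobase of exon (RPKM), with the mean ± SD of the 2 NC repeats. YAP1, the coactivator, stood at 49.3 ± 6.95 RPKM in HN30 and 11.6 ± 1.85 in HN6, while WWTR1, its paralogue TAZ, stood at 12.3 ± 3.11 and 10.6 ± 4.52. The log2 ratio of YAP1 to WWTR1 was thus 2.02 ± 0.57 in HN30 and 0.19 ± 0.41 in HN6, so that in HN6 the 2 coactivators did not differ beyond the spread of the repeats. That small ratio in HN6 turned to -0.31 when the longest transcript replaced all exons as the length.

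LATS2 was higher than LATS1 in both NC libraries of both lines, with log2 ratios of LATS1 to LATS2 of -1.84 ± 0.56 in HN6 and -0.83 ± 0.48 in HN30. STK4 exceeded STK3 by 1.84 ± 0.60 in HN6 and by 0.35 ± 0.28 in HN30 on the log2 scale. With the longest transcript as the length the HN30 value was 0.15, within the spread of the repeats. MOB1A exceeded MOB1B by 4.25 ± 1.04 and 2.76 ± 0.23. These adaptors are close paralogues, and reads shared between them are uncertain because the counting of such reads is not stated. Among the TEAD factors TEAD3 was at 23.9 ± 1.96 RPKM in HN6 and 21.6 ± 0.84 in HN30. TEAD4 was at 10.2 ± 3.17 and 14.9 ± 2.75, and TEAD2 at 3.90 ± 0.91 and 7.68 ± 0.11. TEAD1 was at 15.4 ± 1.44 in HN30, and its 2 NC repeats in HN6 were far apart at 10.6 and 2.71 RPKM.

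Among the angiomotins, scaffold proteins that hold YAP at cell junctions, AMOTL2 was at 59.6 ± 24.2 RPKM in HN6 and 70.5 ± 53.3 in HN30, and AMOT was near absent in HN6 at 0.16 ± 0.0043. The highest target in both lines was F3 (tissue factor), at 414 ± 96.3 RPKM in HN6 and 315 ± 6.82 in HN30. In HN6 it was followed by AXL (a receptor tyrosine kinase) at 193 ± 41.3 and CYR61 (a matricellular protein) at 156 ± 11.6, which did not differ beyond the spread. F3 was followed in HN30 by MYOF (myoferlin, a membrane repair protein) at 75.5 ± 2.64, CYR61 at 64.8 ± 41.7, AJUBA at 36.6 ± 2.04 and AXL at 26.7 ± 1.04, and the spread of CYR61 covered its neighbours in that order. At the low end RBMS3, an RNA-binding protein, was at 0.056 ± 0.031 RPKM in HN6 and 0.081 ± 0.031 in HN30.

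FAT1 KD, with the libraries of both siRNAs pooled, was then compared with NC over both lines, with cell line as a term. None of the 38 members passed an adjusted p of 0.05 in edgeR, while 0.522% of all genes tested did. At an unadjusted p under 0.05 there were 3 members, LATS2, TEAD4 and CYR61, against 14.2% of all genes. limma-voom also called 0 members, and DESeq2 called 2, TEAD4 and CYR61, against 4.68% of all genes. The median log2 fold change was -0.034 over the members and 0.022 over all genes tested, with 17 members above and 21 below 0. CYR61 alone passed the thresholds that the study set for differentially expressed genes (P below 0.05 before adjustment and a log2 fold change beyond 1 in either direction), against 3.2% of all genes. That count became 2 without repeat 1 of HN6 NC, and 0 without repeat 2 of HN30 NC or without repeat 2 of HN30 siFAT1-1.

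TEAD4 (chr12:2959330-3040676, plus strand) was the only member for which no KD library overlapped the NC libraries of its line, all 8 being lower. Of all genes tested 5.29% were separated in this way, in 1 direction or the other. Its HN6 values were 18.1 and 28.4 CPM in NC, 16.8 and 13.01 after siFAT1-1, and 8.05 and 16.8 after siFAT1-2. Its HN30 values were 38.2 and 29.4 CPM in NC, 12.7 and 15.02 after siFAT1-1, and 18.5 and 23.4 after siFAT1-2. In HN6 the highest KD value lay just under the lower NC repeat. In HN30 siFAT1-1 was well under NC, while the higher siFAT1-2 value was closer to the lower NC repeat than the NC repeats were to each other. The log2 fold change over both lines was -0.86 ± 0.24 (adjusted p = 0.13 in edgeR, 0.19 with the repeat as a block, and 0.027 in DESeq2).

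LATS2 (chr13:20973036-21061586, minus strand), which phosphorylates YAP, had a log2 fold change of -0.56 ± 0.18 (adjusted p = 0.18). CYR61 (chr1:85580761-85584589, plus strand) had one of 1.098 ± 0.35 (adjusted p = 0.19, and 0.044 in DESeq2). Other classical targets were not called. CTGF, like CYR61 a matricellular protein, had a log2 fold change of 0.0012 ± 0.56, ANKRD1 one of 0.58 ± 0.64 and AMOTL2 one of -0.59 ± 0.32. YAP1 itself had one of -0.0205 ± 0.18 and WWTR1 one of -0.079 ± 0.20. Their adjusted p-values in edgeR were 0.43 or higher.

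Within each line edgeR called no gene at all, members or others (0% of 13626 genes in HN6 and 0% of 13602 in HN30), and limma-voom and DESeq2 called 0 members. FAT1, the targeted gene, was thus not called either. Its log2 fold change was -2.11 ± 0.40 in HN6 (adjusted p = 0.81 in edgeR) and -0.94 ± 0.35 in HN30 (adjusted p = 0.49). The numbers at an unadjusted p under 0.05 were 2 of 38 members in HN6 (STK3 and CYR61) and 5 of 37 in HN30 (MOB1B, LATS2, TEAD4, VGLL4 and AJUBA), against 5.72% and 9.3% of all genes. The thresholds of the study were passed by 1 member in HN6, CYR61 at a log2 fold change of 1.00 ± 0.31, against 3.08% of all genes, and by 0 members in HN30 against 4% of all genes. The HN6 count became 0 without repeat 1 of siFAT1-1. It rose without repeat 1 of NC, a fit that leaves repeat 2 as the only control. The HN30 count became 1 without repeat 1 of NC or of siFAT1-2, and 2 without repeat 2 of either group. The interaction of cell line and FAT1 KD, which tests whether the 2 lines responded unequally, was called for 0% of 14360 genes, and 0 members had an unadjusted p under 0.05 against 2.21% of all genes.

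The siRNAs were next compared with NC one at a time, and with each other. The first 2 of these comparisons share the NC libraries, so their values are given side by side and only the direct comparison tests whether the siRNAs differed.

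After siFAT1-1 edgeR called 3 of 38 members (7.89%, against 3.15% of all genes), namely TAOK3 and LATS2, which fell, and CYR61, which rose, and 9 members had an unadjusted p under 0.05, against 18.8% of all genes. After siFAT1-2 it called 4 (10.5%, against 11.3%), namely STK4, which rose, and AXL, TEAD3 and ARHGEF17, which fell, and 11 had an unadjusted p under 0.05, against 28.4% of all genes. No member stood in both sets of calls, and the share of all genes in both was not computed. FAT1 itself was called with each siRNA (adjusted p = 0.0065 and 0.024 in edgeR). Both counts of members rested on single libraries. The count of 3 became 0 without repeat 1 of HN6 NC, HN6 siFAT1-1 or HN30 NC or without either HN30 siFAT1-1 library, and 1 without repeat 2 of HN6 siFAT1-1 (TAOK3) or HN30 NC (LATS2). CYR61 was also no longer called without repeat 2 of HN6 NC or HN6 siFAT1-2. The count of 4 became 0 without repeat 1 of HN6 siFAT1-2, HN30 siFAT1-1 or HN30 siFAT1-2 or without either HN30 NC library. It became 1, AXL, without repeat 1 of HN6 NC, repeat 1 of HN6 siFAT1-1 or repeat 2 of HN30 siFAT1-1, and 2, AXL with ARHGEF17 or TEAD3, without repeat 2 of HN6 siFAT1-1 or HN30 siFAT1-2. Without repeat 2 of HN6 NC none of the 4 was called and ASAP1 was. When no gene was removed for low counts, AXL alone was called after siFAT1-2, against 8.88% of all genes.

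**Figure D1:**
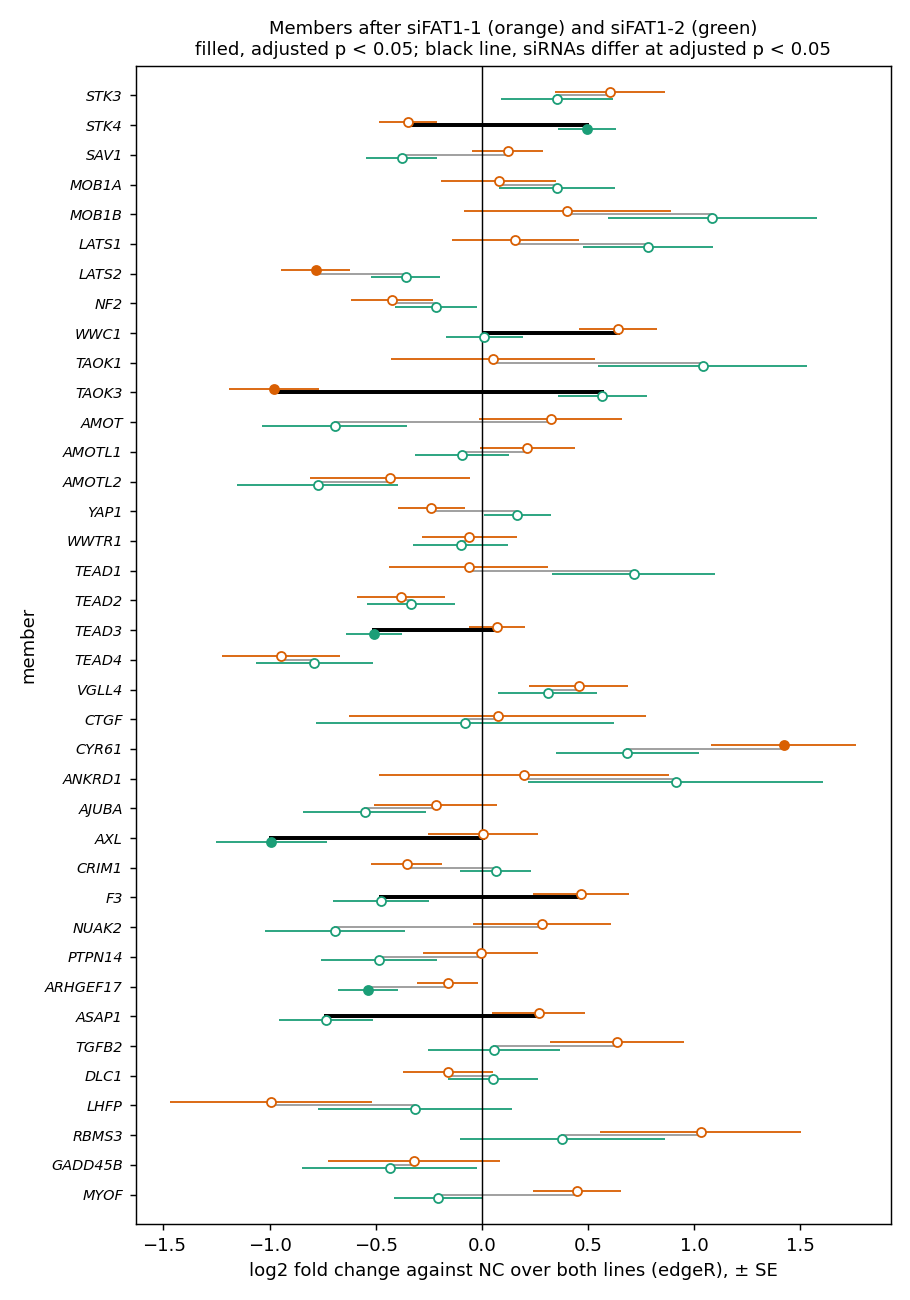
Log2 fold changes against NC (x axis, ± SE) of the 38 members (y axis, by role) after siFAT1-1 (orange) and siFAT1-2 (green), fitted over both lines by edgeR with NC shared. Filled points passed an adjusted p of 0.05, and black lines join the 7 members for which the siRNAs differed at that threshold.

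Set directly against each other, the siRNAs differed for 7 of 38 members (18.4%, against 16.8% of all genes tested). TAOK3 and STK4 were lower with siFAT1-1, while WWC1, TEAD3, AXL, F3 and ASAP1 were higher. At an unadjusted p under 0.05 there were 16, against 33.4% of all genes. In 15 members (39.5%) the siFAT1-1 libraries lay wholly on one side of the siFAT1-2 libraries in both lines, as did 33.4% of all genes tested, so the share called was close to its background. DESeq2 called 12 members, against 25% of all genes. The count was 13 without repeat 2 of HN6 NC, 4 without repeat 1 of HN6 siFAT1-1 or HN30 siFAT1-1, and 3 without repeat 2 of HN30 siFAT1-1. STK4, TAOK3 and ASAP1 were called without each of the 12 libraries in turn, TEAD3 in 10 of these fits, F3 in 9, AXL in 8 and WWC1 in 5. FAT1 itself had a log2 difference of -0.73 ± 0.31 between the siRNAs, lower with siFAT1-1, and was not called (adjusted p = 0.12 in edgeR). Whether the depth of the knockdown had a part in the differences was not tested.

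TAOK3 (chr12:118149801-118372907, minus strand) encodes a TAO kinase, a family that activates MST kinases. In HN6 it was at 42.1 and 27.9 CPM in NC, at 16.1 and 27.5 after siFAT1-1, and at 62.4 and 53.0 after siFAT1-2. In HN30 it was at 42.4 and 49.9 CPM in NC, at 19.0 and 19.1 after siFAT1-1, and at 61.55 and 62.7 after siFAT1-2. In both lines all siFAT1-1 libraries lay under NC and all siFAT1-2 libraries above it. The log2 fold change was -0.98 ± 0.21 for siFAT1-1 (adjusted p = 0.028, and 0.051 with the repeat as a block) and 0.57 ± 0.21 for siFAT1-2 (adjusted p = 0.10). The difference between the siRNAs was -1.55 ± 0.21 (adjusted p = 0.0014). The mean of both siRNAs against NC was -0.0050 ± 0.41, an average over values of opposite sign.

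STK4 (chr20:44966494-45080021, plus strand), the MST1 kinase, had the same order. Its HN6 values were 99.7 and 99.8 CPM in NC, 73.6 and 83.5 after siFAT1-1, and 153 and 115 after siFAT1-2. Its HN30 values were 94.6 and 114 CPM in NC, 77.7 and 85.2 after siFAT1-1, and 158 and 148 after siFAT1-2. Again siFAT1-1 lay under and siFAT1-2 above NC in every library. The log2 fold change was -0.35 ± 0.14 for siFAT1-1 (adjusted p = 0.20) and 0.49 ± 0.14 for siFAT1-2 (adjusted p = 0.039, and 0.052 with the repeat as a block), and the difference was -0.84 ± 0.14 (adjusted p = 0.0029).

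LATS2 was low in all 4 siFAT1-1 libraries. Its HN6 values were 59.3 and 39.5 CPM in NC, 30.4 and 29.4 after siFAT1-1, and 43.2 and 35.4 after siFAT1-2. Its HN30 values were 56.9 and 46.2 CPM in NC, 29.0 and 28.5 after siFAT1-1, and 40.6 and 38.3 after siFAT1-2. The siFAT1-2 libraries were under both NC libraries in HN30 and overlapped them in HN6. The log2 fold change was -0.78 ± 0.16 for siFAT1-1 (adjusted p = 0.024) and -0.36 ± 0.16 for siFAT1-2 (adjusted p = 0.17), and the siRNAs were not shown to differ (-0.42 ± 0.16, adjusted p = 0.090). LATS1, its paralogue, had log2 fold changes of 0.16 ± 0.30 and 0.78 ± 0.31, neither of which was called.

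Of the TEAD factors TEAD3 was called. TEAD3 (chr6:35473597-35497079, minus strand) was at 46.5 and 46.1 CPM in HN6 and 47.6 and 54.8 CPM in HN30 after siFAT1-2, whereas the NC and siFAT1-1 libraries of both lines held 64.2 to 78.6 CPM. The siFAT1-2 libraries lay under all others, with a log2 fold change of -0.51 ± 0.13 against NC (adjusted p = 0.032) and a difference between the siRNAs of 0.58 ± 0.13 (adjusted p = 0.014). TEAD4, given above, was under NC with both siRNAs, at -0.95 ± 0.28 for siFAT1-1 (adjusted p = 0.091) and -0.79 ± 0.28 for siFAT1-2 (adjusted p = 0.087). The siRNA difference for TEAD4 was -0.16 ± 0.28.

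**Figure D2:**
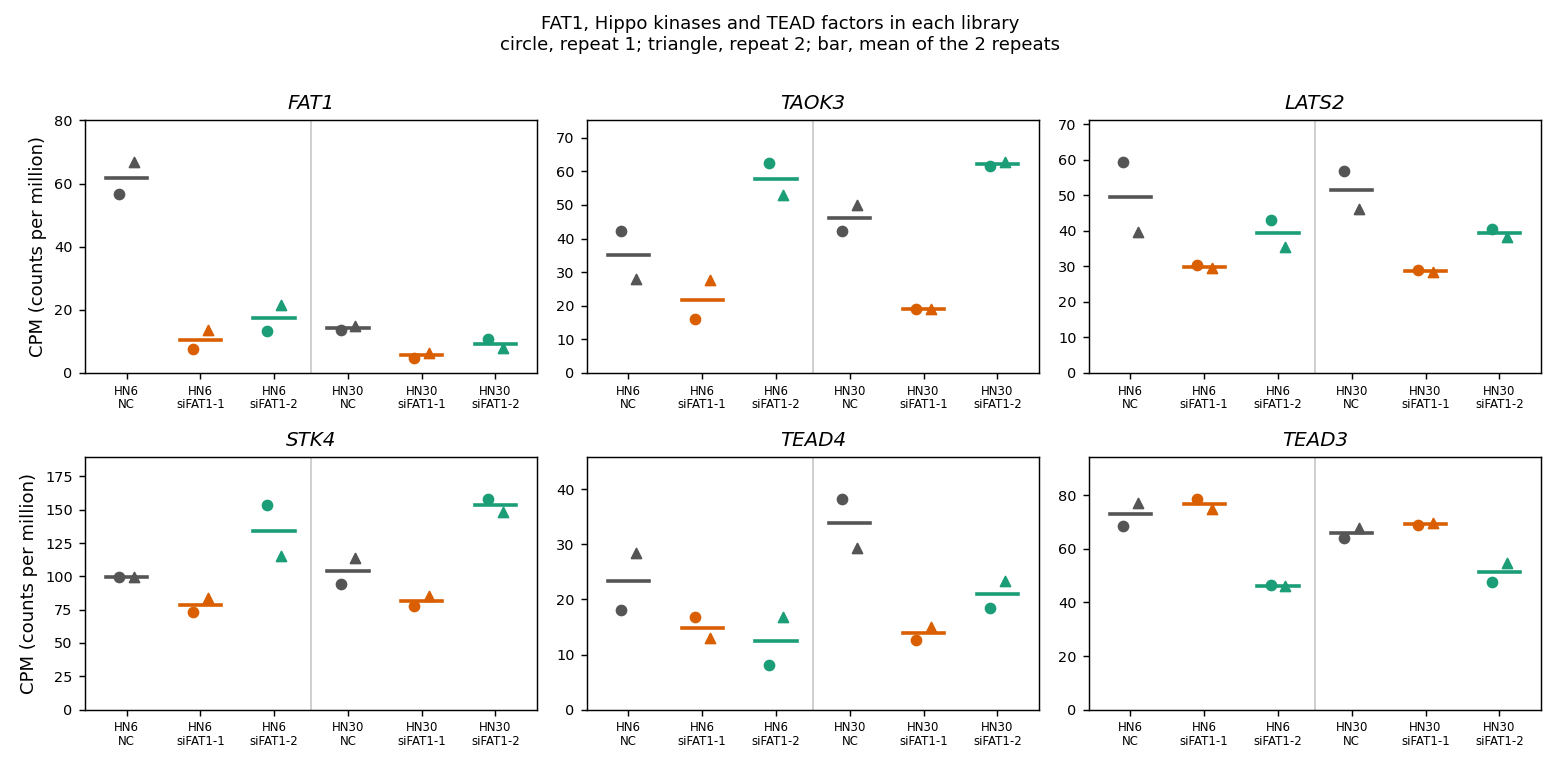
CPM (y axis, from 0) of FAT1, TAOK3, LATS2, STK4, TEAD4 and TEAD3 in each library by cell line and siRNA (x axis). TAOK3 lies at 16.1 to 27.5 after siFAT1-1 and at 53.0 to 62.7 after siFAT1-2, and TEAD3 at 46.1 to 54.8 after siFAT1-2.

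The upstream regulator WWC1 (KIBRA, which helps activate LATS) was higher with siFAT1-1, at 234 and 196 CPM in HN6 and 208 and 231 CPM in HN30. The NC libraries held 106 and 185 CPM in HN6 and 141 and 125 CPM in HN30, and siFAT1-2 gave 119, 146, 130 and 167 CPM in the same order. The siFAT1-1 libraries were above all others of their line. The difference between the siRNAs was 0.63 ± 0.18 on the log2 scale (adjusted p = 0.035), and siFAT1-1 against NC gave 0.64 ± 0.18 (adjusted p = 0.080). NF2 (merlin) had log2 fold changes of -0.42 ± 0.19 and -0.21 ± 0.19 against NC, with adjusted p-values of 0.26 and 0.50.

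Among the targets AXL, F3 and ASAP1 separated the siRNAs. AXL (chr19:41219223-41261766, plus strand) was at 839 and 1139 CPM in HN6 NC, at 954 and 831 after siFAT1-1, and at 388 and 703 after siFAT1-2. In HN30 it was at 133 and 141 CPM in NC, at 139 and 163 after siFAT1-1, and at 37.6 and 86.7 after siFAT1-2. The siFAT1-2 libraries were the lowest of each line, although their 2 repeats were far apart. The log2 fold change for siFAT1-2 was -0.99 ± 0.26 (adjusted p = 0.032), that for siFAT1-1 was 0.0052 ± 0.26, and the difference was 1.00 ± 0.26 (adjusted p = 0.024).

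F3 (chr1:94529173-94541759, minus strand), the initiator of blood clotting, was at 999 and 1392 CPM in HN6 NC, 1201 and 1520 after siFAT1-1, and 726 and 1262 after siFAT1-2. In HN30 the values were 924 and 896 CPM in NC, 1396 and 1570 after siFAT1-1, and 536 and 567 after siFAT1-2. The siRNA groups were apart in HN30 and overlapped in HN6. The difference was 0.94 ± 0.23 (adjusted p = 0.017), made of 0.47 ± 0.22 for siFAT1-1 and -0.47 ± 0.22 for siFAT1-2 against NC, neither of which was called. ASAP1, an Arf GTPase-activating protein, was at 108 and 92.8 CPM after siFAT1-2 in HN30, where the other 4 libraries held 200 to 262 CPM. In HN6 it was at 70.8 and 112 CPM after siFAT1-2 and at 147 and 152 after siFAT1-1, but the NC repeats, 162 and 86.0 CPM, spanned both. The difference between the siRNAs was 1.00 ± 0.22 (adjusted p = 0.012). ARHGEF17, a guanine nucleotide exchange factor, fell with siFAT1-2 by 0.54 on the log2 scale (SE 0.14, adjusted p = 0.033), from 67.6 and 78.6 CPM in NC to 48.1 and 53.9 in HN6 and from 102 and 118 to 73.5 and 76.0 in HN30.

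CYR61 was the only target called after siFAT1-1. In HN6 it was at 547 and 608 CPM in NC, 1503 and 1117 after siFAT1-1, and 1226 and 702 after siFAT1-2. In HN30 it was at 349 and 131 CPM in NC, 643 and 855 after siFAT1-1, and 528 and 211 after siFAT1-2. All siFAT1-1 libraries were above both NC libraries of their line, whereas repeat 2 of HN30 siFAT1-2 lay between the 2 NC repeats. The log2 fold change was 1.42 ± 0.34 for siFAT1-1 (adjusted p = 0.044) and 0.69 ± 0.34 for siFAT1-2 (adjusted p = 0.20), and the siRNAs were not shown to differ (0.74 ± 0.34, adjusted p = 0.15).

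As a group, 13 of the 17 targets were higher with siFAT1-1 than with siFAT1-2, against 6987 of the 14360 genes tested. Their median log2 difference was 0.48, against -0.019 over all genes. Of the targets 3 were called (17.6%), close to the 16.8% of all genes. Against NC, 10 of 17 were above 0 after siFAT1-1 (median 0.074), and 7144 of 14360 over all genes (median -0.0029). After siFAT1-2 there were 6 of 17 (median -0.31), and 7158 of 14360 over all genes (median -0.0025). Of the 7 core kinases and adaptors 2 were higher with siFAT1-1 than with siFAT1-2, and the median difference was -0.42, against the same -0.019 over all genes. So were 4 of the 7 upstream regulators and angiomotins (median 0.31) and 3 of the 7 effectors and TEAD factors (median -0.046).

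TEAD factors are known to bind a short DNA word, and the stretches before the start sites of the members were searched for it. The word GGAATG, or CATTCC on the other strand, was searched in the 250 bases before each start site of the RefSeq promoters of GRCh38.p14. It occurred in 4175 of 35116 promoters (11.9%), and in 2 or more copies in 330 (0.94%). Of the 38 members 29 had an entry, with 43 start sites, and CYR61 was not among them. Of the 11 targets with an entry 7 held the word at 1 start site or more (7 of 13 windows). So did 1 of 5 effectors and TEAD factors (1 of 11 windows) and 2 of 7 upstream regulators and angiomotins (2 of 11 windows). Of the core kinases and adaptors 0 of 6 did (0 of 8 windows). The share of all promoters is by window and not by gene. A word in this window is a description and not a bound site. CTGF, ANKRD1 and NUAK2, a stress-activated kinase, were the members with more than 1 copy. Their stretches are shown here because the levels of these targets are described next and in the comparison of the lines. They are followed by the stretches of AMOTL2, at the second of its start sites, and of YAP1. Capitals mark the word, and each runs 5′ to 3′ along the gene's strand.
CTGF (chr6:131951450-131951553, minus strand): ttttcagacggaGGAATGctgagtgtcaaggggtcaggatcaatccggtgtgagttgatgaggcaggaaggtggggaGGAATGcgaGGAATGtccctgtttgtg
ANKRD1 (chr10:90921198-90921319, minus strand): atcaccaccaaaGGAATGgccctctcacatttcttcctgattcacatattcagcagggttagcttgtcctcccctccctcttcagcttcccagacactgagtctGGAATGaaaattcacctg
NUAK2 (chr1:205321746-205321954, minus strand): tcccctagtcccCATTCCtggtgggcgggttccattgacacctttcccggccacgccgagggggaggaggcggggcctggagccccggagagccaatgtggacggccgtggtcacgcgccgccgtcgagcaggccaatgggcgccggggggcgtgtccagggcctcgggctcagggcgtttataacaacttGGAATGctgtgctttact
AMOTL2 (chr3:134374499-134374528, minus strand): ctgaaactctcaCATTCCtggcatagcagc
YAP1 (chr11:102110273-102110302, plus strand): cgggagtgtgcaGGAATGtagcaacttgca

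The words began 169, 104 and 95 bases before the start site in CTGF (positions -169, -104 and -95), at -220 and -128 in ANKRD1, at -197 and -18 in NUAK2, at -69 in AMOTL2 and at -162 in YAP1.

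CTGF differed between the repeats in most conditions. It was at 78.3 and 19.4 CPM in HN6 NC, 63.1 and 13.7 after siFAT1-1, and 51.3 and 12.5 after siFAT1-2. In HN30 it was at 19.2 and 5.05 CPM in NC, 13.7 and 22.2 after siFAT1-1, and 29.2 and 5.31 after siFAT1-2. Repeat 1 was 3.79 to 5.51 times repeat 2 in 5 of the 6 conditions, and the exception was HN30 siFAT1-1, at 0.62 times. In HN6 all repeat 1 libraries were above all repeat 2 libraries whichever siRNA they received, and in HN30 the repeats overlapped.

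Repeat 1 was therefore set against repeat 2 with line and siRNA as terms, a comparison added after the data were seen. edgeR called 0 members and 0% of all genes, with 7 members at an unadjusted p under 0.05 against 14.1% of all genes. limma-voom called 0 members and DESeq2 called 2, CTGF and AMOTL2, against 2.52% of all genes. Without repeat 2 of HN30 siFAT1-1 edgeR called CTGF. CTGF was higher in repeat 1 by 1.62 ± 0.40 on the log2 scale and AMOTL2 by 0.85 ± 0.21 (adjusted p = 0.24 for both). AMOTL2 was at 497, 373 and 387 CPM in the HN6 repeat 1 libraries (NC, siFAT1-1, siFAT1-2) and at 275, 263 and 181 in repeat 2. In HN30 it was at 701, 290 and 284 CPM in repeat 1 and at 213, 326 and 141 in repeat 2, so that siFAT1-1 was again the exception.

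LATS2, VGLL4 (a TEAD-binding repressor of YAP) and GADD45B (a stress-induced gene) were higher and ARHGEF17 lower in repeat 1 in all 6 conditions, 4 of 38 members (10.5%), and 8.42% of all genes had such an order. GADD45B was at 54.3, 31.5 and 72.5 CPM in HN6 repeat 1 and at 36.8, 28.7 and 25.1 in repeat 2, and its fitted difference was 0.72 ± 0.27. The labels call the repeats time1 and time2, and what differed between them is not given.

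**Figure D3:**
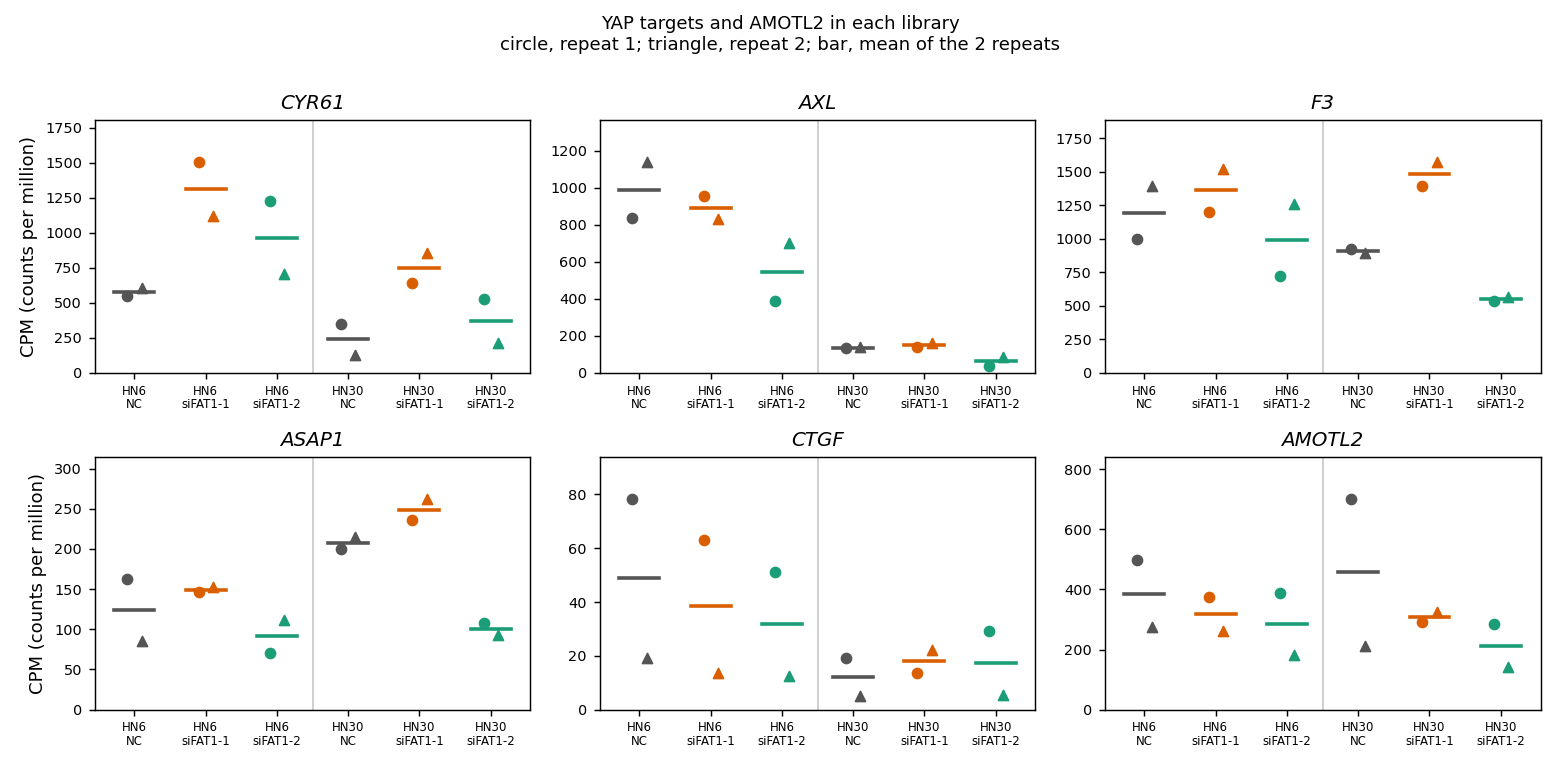
CPM (y axis, from 0) of CYR61, AXL, F3, ASAP1, CTGF and AMOTL2 in each library by cell line and siRNA (x axis). CTGF repeats 1 (circles) lie above repeats 2 (triangles) in 5 of 6 conditions, and AXL siFAT1-2 libraries are the lowest of each line.

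Repeat 2 of HN6 NC was also far below the rest of its line for 3 members. TAOK1, a relative of TAOK3, was at 11.5 CPM in that library and at 62.8 to 200 in the other 5 HN6 libraries. MOB1B was at 4.15 against 16.7 to 61.8 CPM, and TEAD1 at 29.0 against 72.5 to 217 CPM. Each was under 0.5 times every other HN6 library, as were 8.31% of all genes tested. This share was not computed for any other library. MOB1A, LATS1 and STK3 missed that cut but were also lowest there. They were at 95.7, 12.7 and 15.7 CPM, against at least 188, 23.6 and 28.4 in the other HN6 libraries. The HN6 paralogue ratios given above that include any of these genes rest on this library as well. The NC means of these genes in HN6 therefore rest on 2 unlike libraries, and the part of transcript length or RNA quality in this was not tested. After siFAT1-2 the log2 fold changes over both lines were 1.04 ± 0.49 for TAOK1, 1.09 ± 0.49 for MOB1B and 0.72 ± 0.38 for TEAD1, and none of these 3 was called (adjusted p = 0.17 to 0.24).

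**Figure D4:**
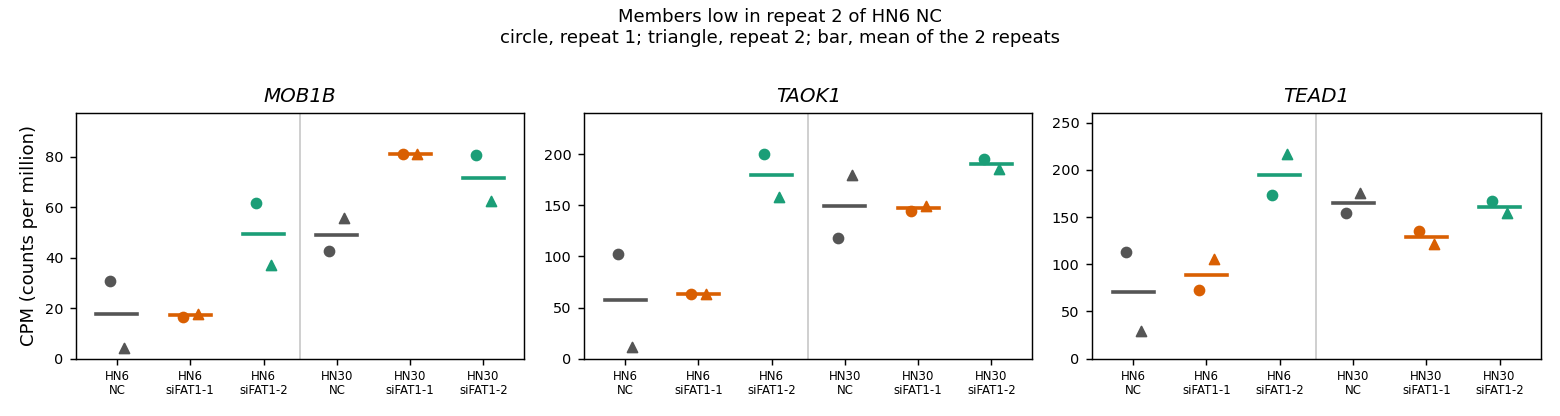
CPM (y axis, from 0) of MOB1B, TAOK1 and TEAD1 in each library by cell line and siRNA (x axis). Repeat 2 of HN6 NC (grey triangle at the left) is the lowest library in each panel, at 4.15, 11.5 and 29.0.

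More members were called between the 2 lines than between the siRNAs, although the line comparison set more libraries against each other. The median absolute log2 difference of the members was 0.51 between the lines and 0.54 between the siRNAs. Over all genes tested it was 0.66 and 0.43. HN6 against HN30 over all libraries, with siRNA as a term, called 15 of 38 members (39.5%), a smaller share than the 56.6% of all genes, with 7 higher and 8 lower in HN6. In 9 members (23.7%) all 6 HN6 libraries lay on one side of all 6 HN30 libraries, as in 25.7% of all genes. In the NC libraries alone 6 members were called, namely LHFP, AXL, ANKRD1, NUAK2, AMOT and YAP1, all in the same direction as over the 12 libraries, against 11.4% of all genes. In bulk RNA a lower level in each cell and fewer cells that express a gene cannot be told apart.

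Of the 8 members lower in HN6, 6 belonged to the cascade and 2 were targets. YAP1 (chr11:102110447-102233424, plus strand) ran from 65.0 to 111 CPM in HN6 (median 78.2) and from 214 to 342 in HN30 (median 282), without overlap, a log2 difference of -1.78 ± 0.13 (adjusted p = 5.3e-07). AMOT ran from 0.61 to 3.21 CPM in HN6 (median 1.37) and from 4.66 to 11.1 in HN30 (median 7.23), a difference of -2.32 ± 0.29 (adjusted p = 3.4e-05). AMOTL1 (-1.23 ± 0.18) and TEAD2 (-1.07 ± 0.17) were separated in every library as well. STK3 and MOB1B were lower by smaller or less even margins (-0.93 ± 0.22 and -1.42 ± 0.41), and so were the targets ARHGEF17 and ASAP1 (-0.71 ± 0.12 and -0.54 ± 0.18).

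The 7 members higher in HN6 were all targets. By role, 9 of the 17 targets were called between the lines (52.9%), and 2 of 7 genes in each other role (28.6%). These shares lay below the 56.6% of all genes. ANKRD1, an ankyrin repeat protein used as a YAP reporter gene, ran from 35.2 to 55.4 CPM in HN6 (median 45.3) and from 0 to 1.62 in HN30 (median 0.26), a difference of 6.82 ± 0.67 (adjusted p = 4.9e-06). LHFP ran from 7.65 to 13.9 CPM against 0.037 to 0.57 (5.82 ± 0.43, adjusted p = 5.1e-07). AXL ran from 388 to 1139 CPM against 37.6 to 163 (2.85 ± 0.23), NUAK2 from 9.37 to 40.6 against 2.86 to 8.62 (2.21 ± 0.28) and DLC1, a tumour suppressor, from 33.3 to 56.5 against 15.1 to 23.0 (1.19 ± 0.18). These 5 did not overlap between the lines. CYR61 and AJUBA, a LIM protein that restrains LATS, overlapped between the lines, with differences of 1.15 ± 0.28 (adjusted p = 0.0037) and 0.63 ± 0.24 (adjusted p = 0.039). CTGF was higher in HN6 by 1.33 ± 0.58 and was not called (adjusted p = 0.069). With the repeat within each line as a block MOB1B (adjusted p = 0.18), ASAP1 (0.16) and AJUBA (0.59) were no longer called.

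**Figure D5:**
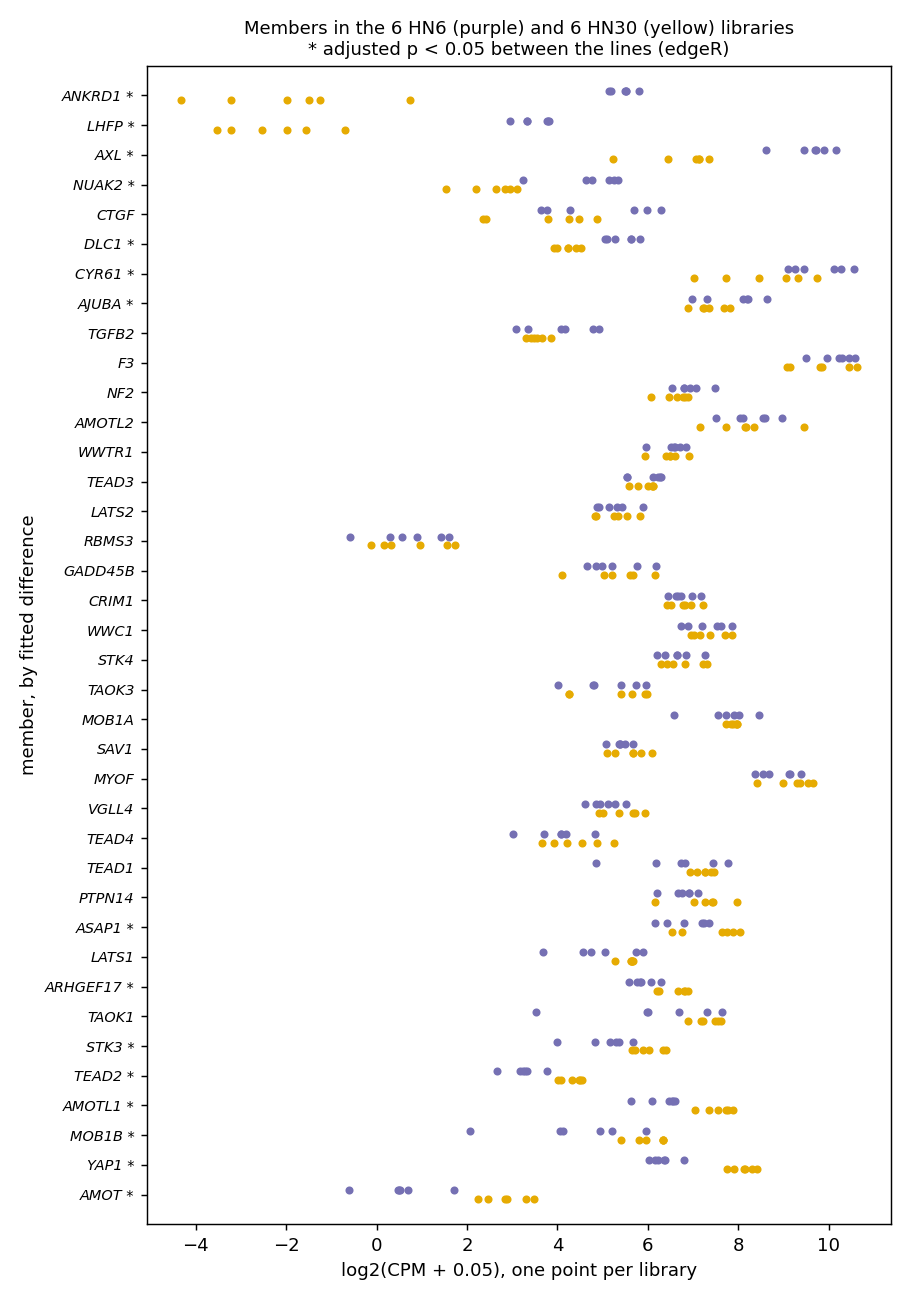
Expression of the 38 members (y axis, ordered by the fitted difference between the lines) in the 6 HN6 (purple) and 6 HN30 (yellow) libraries, as log2 of CPM plus 0.05 (x axis). Asterisks mark the 15 members called by edgeR, with ANKRD1 and LHFP highest in HN6 relative to HN30 and AMOT and YAP1 lowest.

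Genes of the pathway outside the 38 members were counted in 4 lists. In FAT1 KD against NC over both lines, where 0.522% of all genes were called, 1 of 16 kinase relatives and cofactors was called, and 0 of 33 other upstream regulators, 0 of 20 STRIPAK and turnover genes and 0 of 16 other YAP targets. The called gene was STK38, an NDR kinase related to LATS. In HN6 it was at 57.3 and 67.3 CPM in NC and at 96.4 to 114 in the 4 KD libraries. In HN30 it was at 39.1 and 29.6 CPM in NC and at 61.0 to 79.7 in the KD libraries. No KD library overlapped the NC libraries of its line, with a log2 fold change of 0.95 ± 0.15 (adjusted p = 0.018, and 0.036 with the repeat as a block). The call was lost without repeat 1 of HN6 NC or either HN30 NC library, with an adjusted p up to 0.089. Against NC it was called for each siRNA, at 1.00 ± 0.16 and 0.89 ± 0.16.

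The lists differed more by siRNA. After siFAT1-1, where 3.15% of all genes were called, YWHAH, a 14-3-3 protein of the family that holds phosphorylated YAP in the cytoplasm, fell by 0.89 on the log2 scale (SE 0.13, adjusted p = 0.0049). After siFAT1-2, 5 of 33 other upstream regulators were called, 1 up and 4 down, led by WWC3 (-1.60 ± 0.23, adjusted p = 0.0029), a relative of WWC1. With it 2 of 20 STRIPAK and turnover genes, 2 of 16 kinase relatives and cofactors and 3 of 16 other YAP targets were called, against 11.3% of all genes. Among these were SFN (14-3-3 sigma; -1.35 ± 0.20, adjusted p = 0.0034) and DKK1, a secreted Wnt inhibitor (1.09 ± 0.24, adjusted p = 0.017). Between the siRNAs 8 of 33, 4 of 20, 5 of 16 and 6 of 16 genes of these lists, in the same order, were called, against 16.8% of all genes. Of the 16 other YAP targets 10 were higher with siFAT1-1, and of the 6 called 2 were higher and 4 lower. SFN was higher with siFAT1-1 by 1.86 ± 0.21 and WWC3 by 1.88 ± 0.23, whereas DKK1 was lower by 1.59 on the log2 scale and YWHAH by 1.03.

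Between the lines 18 of 33 other upstream regulators, 10 of 20 STRIPAK and turnover genes, 11 of 16 kinase relatives and cofactors and 9 of 16 other YAP targets were called, against 56.6% of all genes. FOXF2, a forkhead factor listed as a YAP target, had 0 counts in all 6 HN6 libraries and 4.15 to 10.5 CPM in HN30, at least 598-fold higher when HN6 is put at 3 counts over its 6 libraries. GADD45A was higher in HN6 by 2.05 ± 0.17 (adjusted p = 1.1e-06). FAT4, a cadherin related to FAT1, ran from 3.84 to 26.2 CPM in HN6 and from 0.52 to 1.40 in HN30 (3.75 ± 0.40, adjusted p = 1.0e-05).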

How the data were processed

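The libraries were poly(T)-selected and sequenced as 150-bp pairs. Before counting, the authors filtered the reads for quality, ambiguous bases and duplicates and used hg38 as the genome. The deposited values are whole-number counts per gene symbol without normalization. Per the submitters' processing notes, HISAT2 and featureCounts were used, with versions, annotation and strand setting not given in the sources used here, so overlapping, antisense and near-identical genes are uncertain.

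edgeR 4.0.16 (TMM, filterByExpr with a minimum count of 10 over the 6 conditions, glmQLFit, glmQLFTest; prior count 0.125) was run in R 4.3.3 on all genes that passed, with Benjamini-Hochberg adjustment. limma 3.58.1 and DESeq2 1.42.0 were alternatives, along with other filters and scalings, a replicate block and each library left out in turn. Within-line fits tested 13626 and 13602 genes. Per-length levels used exons of GENCODE 44. Scripts were checked on simulated data, and figures used matplotlib 3.10.9. Columns of sample values left out numbered 0. The 19225 entries held 27 symbols turned into dates.

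The labels call the repeats time1 and time2. Whether libraries of a line that share a number were handled together is not stated. Departures from the group mean in libraries sharing a number correlated at 0.080 to 0.22 in HN6 and at -0.031 to 0.39 in HN30. P-values measure the spread between 2 repeats. In the main fits over both lines, other than the interaction, they also take in how unequally the lines responded to the siRNAs. Where both siRNAs were pooled, they take in the difference between the siRNAs as well. The members and lists were chosen with earlier results of these data known. All 38 members are described by role, and other pathway genes are named only where called, at most 3 per list and comparison by smallest p; some genes that meet this rule are not reported here.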

Additional observations from a re-analysis of the deposited data

How the results depend on the processing

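Counts of members called kept within 1.5 times under DESeq2 size factors, limma-voom and a minimum count of 50 in all 9 comparisons. The DESeq2 Wald test called 2 members for FAT1 KD against NC, 5 for siFAT1-1, 12 for siFAT1-1 against siFAT1-2 and 2 for repeat 1 against repeat 2, and put 1 member past the study's thresholds in HN30. Without a filter on low counts 1 member was called for siFAT1-2 and 0 passed the study's thresholds in HN6. NC libraries alone gave 6 for HN6 against HN30. Leaving out 1 library gave 0 to 4 calls for siFAT1-1, 0 to 5 for siFAT1-2, 3 to 13 between the siRNAs, 13 to 19 between the lines, 0 to 1 between repeats, and 0 in each case for FAT1 KD over both lines, within each line and for the interaction. Past the study's thresholds it left 0 to 2 members over both lines, 0 to 7 in HN6 and 0 to 2 in HN30. With the replicate block the counts were 2, 3, 10 and 13 for siFAT1-1, siFAT1-2, between the siRNAs and between the lines, and 0 elsewhere; the calls it ended among the members named are given in the report, and no direction turned. The log2 ratio of YAP1 to WWTR1 in HN6 was -0.31 with the longest transcript. Whether more depth or more repeats would change the calls was not tested.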
